A study of Mus musculus with 2 samples.

Results

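Among 6987 barcodes kept from a sort of T cells out of MB49 tumours, 64 carried the epithelial keratins Krt8 and Krt18 at a high level and are described here as the keratin-positive cells. They were chosen by the measured keratin level alone. A barcode, the tag of 1 droplet, was taken when its unique molecular identifiers (UMIs) of Krt8 and Krt18 together numbered at least 10 and made up at least 500 CPM (counts-per-million of that barcode's UMIs). The keratin-positive cells were 37 of 3468 kept barcodes in the female library (1.07%, exact Clopper-Pearson 95% interval 0.752% to 1.47%) and 27 of 3519 in that of the males (0.767%, with bounds of 0.506% and 1.11%). MB49 is a transplantable mouse bladder tumour line of male origin. The tumours grew in C57BL/6J hosts of either sex, 12 to 14 weeks of age, with no further treatment in the labels, and were collected on day 14. The labels state that viable CD4+ T cells were sorted from digested tumours and that 10000 to 20000 cells per library entered a droplet kit that reads the 5′ end of transcripts. The UMIs go against that label in most T cells, as given below. There was 1 library per sex, and the number of mice behind each is not stated, so no difference between the sexes has a replicate check and no test was made. As the reference within the same libraries, T cells were the 6244 kept barcodes (3189 female, 3055 male) with at least 1 UMI of Cd3e, a chain of the T cell receptor complex, and no UMI of either keratin. A further 679 kept barcodes belonged to neither set.

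Keratin 8 and keratin 18 pair into the intermediate filaments of simple epithelia, and carcinoma cells of glandular and bladder origin commonly keep them. The urothelium adds uroplakins on its luminal face and basal keratins in its deepest layer. Carcinoma cells that lose E-cadherin and gain vimentin are described as having undergone an epithelial to mesenchymal transition. Tumour cells can also present antigen: class I molecules are made by nearly all nucleated cells, while class II molecules are made by professional antigen-presenting cells and, after interferon gamma, by many other cells.

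Levels of a set of cells are given in CPM too, the UMIs of a gene summed over a set of barcodes and scaled to the UMIs of that set. Each molecule is counted once, so levels carry no length scaling. Intervals are 95%, exact, and cover counting error only. The keratin-positive cells held 3315435 UMIs in all, with a median of 49891 per barcode (1727 to 139731) and 5902.5 genes, against a median of 9106.5 UMIs and 2693.5 genes in T cells. At an equal depth of 3000 UMIs the order of gene number turned: the expected median was 1202 genes in 63 keratin-positive cells (1 shallower barcode left out) and 1336 in 5921 T cells (323 left out). Mitochondrial transcripts took a median of 1.65% of UMIs in the keratin-positive cells. The same 16 barcode sequences occurred in both libraries, and none of them was keratin-positive. A count of 0 allows up to 0.905 CPM in the keratin-positive cells and 0.0311 CPM in T cells, at 3 counts.

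The keratins set the rule, and their values are given as a description. Krt8 (chr15:101996698-102004482, minus strand, GRCm38) stood at 1983 CPM (female) and 2054 CPM (male). Krt18 lies next to it (chr15:102028180-102032027, plus strand) and stood at 1968 and 1950 CPM. The sum of both ranged from 688 to 8849 CPM over the 64 barcodes, with a median of 3141, and the library medians were 3142 and 3139. Every one of the 64 barcodes held UMIs of both genes. The 4 lowest barcodes lay at 688, 711, 885 and 933 CPM, and the fifth at 1256 CPM. Just outside the rule stood 1 barcode with 18 keratin UMIs at 339 CPM, and 7 barcodes (2 female, 5 male) above 500 CPM with 1 to 8 keratin UMIs. Of the 163 kept barcodes below the rule that held any keratin UMI, 140 held exactly 1. None of the 379 barcodes removed for few genes or mitochondrial content reached the keratin level.

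Tm4sf1, a tetraspan-like membrane protein abundant on many carcinoma cells, went with the keratins although the rule did not use it. It stood at 553 CPM (female) and 560 CPM (male), with a UMI in 63 of 64 barcodes and a median of 388 CPM per barcode (0 to 2066). In T cells it stood at 0.404 CPM, with a UMI in 21 of 6244 barcodes (0.336%). The log2 ratio over T cells was 10.43 (9.97 to 10.92). With every barcode thinned to 3000 UMIs, 64.6% of keratin-positive cells and 0.0630% of T cells would be expected to show a Tm4sf1 UMI. Of the 3 markers that name these cells, Tm4sf1 is the one that did not choose them. It was named with earlier results of these data known, so its level is a description and not an independent check.

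T cell transcripts were concentrated in 12 of the 64 barcodes. These 12 (8 female, 4 male; 18.75%) held at least 1 UMI of Cd3e, Cd3d or Cd3g, and the other 52 (29 female, 23 male) held none. Summed over 22 T cell marker genes, T cells stood at 18454 CPM and all 64 keratin-positive cells at 1130 CPM, or 6.13% of the T cell level. The 12 Cd3-positive barcodes reached 4568 CPM (68.6 to 12313 per barcode, median 4843), or 24.8% of the T cell level. The 52 Cd3-free barcodes held 39 such UMIs among 2503501, which is 15.6 CPM or 0.0844% of the T cell level, and 38 of them held none. Of these 39 UMIs, 32 were of 1 gene, Ccl5, and lay in 10 barcodes. Absence of Cd3 UMIs defined the Cd3-free set, so only the other genes of the list bear on it. Ptprc, the pan-leukocyte gene, had 0 UMIs there, where the T cell level would give 1607.

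**Figure D1:**
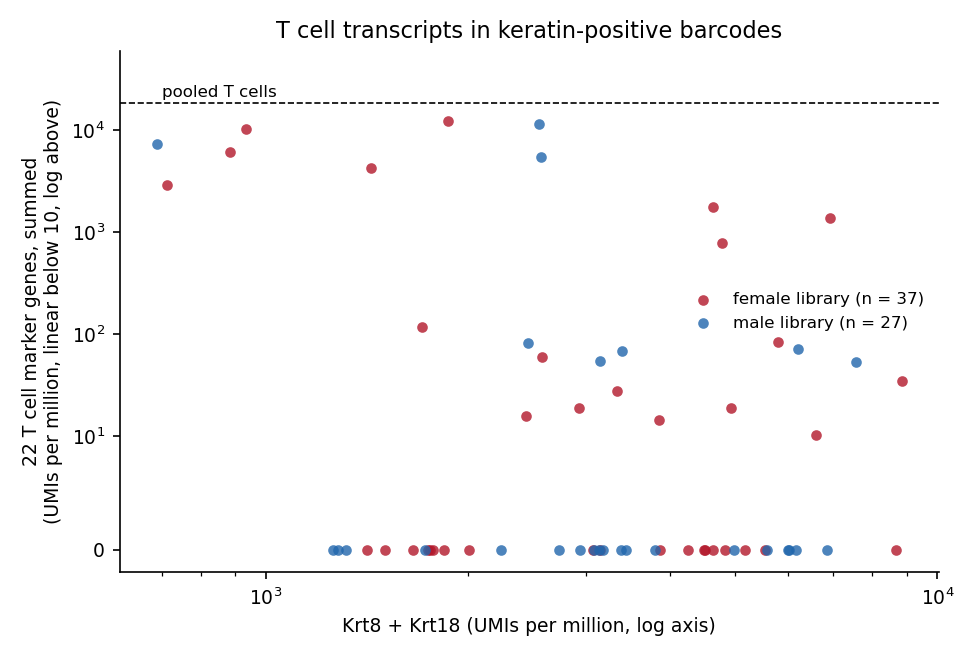
Summed level of 22 T cell marker genes (vertical axis, CPM, linear below 10 and logarithmic above) against Krt8 plus Krt18 (horizontal axis, CPM, logarithmic) in each of the 64 keratin-positive barcodes, coloured by library. The dashed line is the pooled T cell level of 18454 CPM, and 38 barcodes sit at 0.

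The T cell transcripts of the 12 Cd3-positive barcodes were of a CD8 kind more often than a CD4 kind. In 10 of them Cd8a and Cd8b1 together exceeded Cd4, in 1 Cd4 exceeded both, and 78.1% of T cells likewise held more Cd8a and Cd8b1 than Cd4. This goes against the stated CD4+ sort, and most reference T cells are thus barcodes with more CD8 than CD4 transcripts. Gene by gene, the level in these 12 barcodes was between 6.4% (Cd4) and 36.2% (Trbc1) of that in T cells, with a median of 21.1%. Their keratin level was 688 to 6912 CPM (median 2210), against 1256 to 8849 CPM (median 3258) in the Cd3-free barcodes, and all 4 barcodes under 1000 CPM were Cd3-positive. Their median depth was 60360 UMIs, against 45950. These T cell transcripts are treated below as carried over from T cells. Whether a shared droplet, cells stuck together or free RNA brought them was not tested. Several results that rest on the 12 barcodes are given with and without them, and the others include them unless stated.

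The keratin-positive cells lacked the sex-linked transcripts of their hosts. Xist, the RNA of the inactive X chromosome, had 0 UMIs in the 29 Cd3-free female barcodes, where the level of female T cells (228 CPM) would give 322.6. Female T cells were at least 108-fold higher, taking 3 UMIs as the limit. In the 23 Cd3-free male barcodes Eif2s3y, Ddx3y, Uty and Kdm5d, all on the Y chromosome, had 0 UMIs, where male T cells would give 96.7, 49.3, 35.5 and 11.5. Male T cells were thus at least 32.2-fold, 16.4-fold, 11.8-fold and 3.83-fold higher. The Cd3-positive barcodes differed: 7 of 8 female ones held Xist (23 UMIs), and the 4 male ones held 2 UMIs each of Ddx3y and Eif2s3y. The X-linked partners of the Y genes were measured in both: Ddx3x stood at 53.7 against 70.4 CPM in T cells, Eif2s3x at 54.6 against 61.3, Kdm5c at 27.1 against 47.6 and Kdm6a at 13 against 42.6 CPM.

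**Figure D2:**
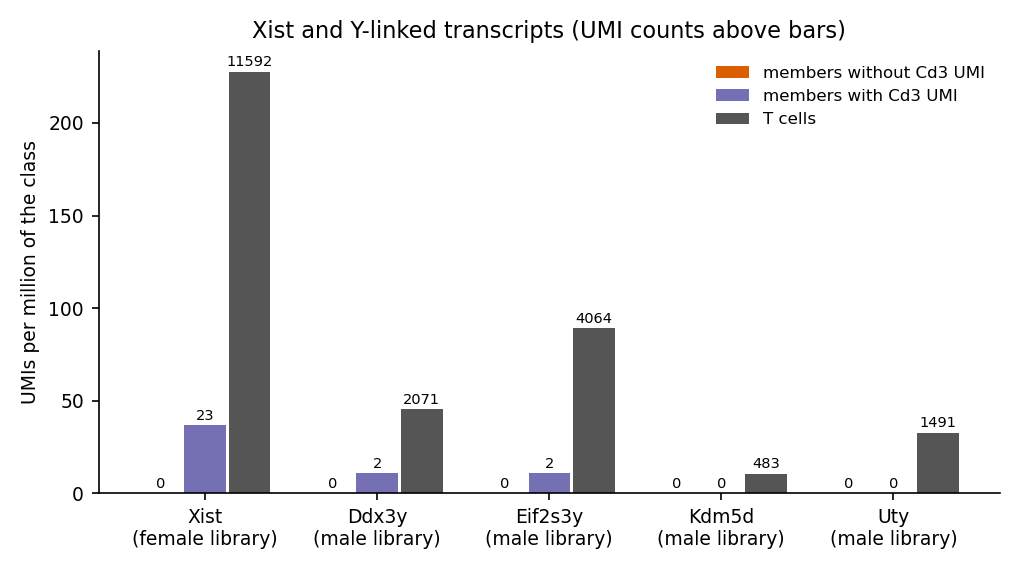
Xist in the female library and 4 Y-linked genes in the male library, as CPM of each class (bars) with the UMI count written above; classes are keratin-positive barcodes without a Cd3 UMI, with a Cd3 UMI, and T cells. All 5 genes are at 0 in the barcodes without a Cd3 UMI.

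Nr3c1, which encodes the glucocorticoid receptor, stood at 46.5 CPM against 117 CPM in T cells. Esr1 was at 0.905 CPM, Gper1 at 0.302 CPM, and Esr2, Pgr and Prlr at 0 in all 64 barcodes.

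Over 8884 genes measured at 10 CPM or more in either set, 1029 (11.6%) were higher in the keratin-positive cells and 1152 (13%) lower, at 4-fold or more with the near bound of the interval at 2-fold or more. Since keratins chose the cells, these counts describe the difference between cell types and are not a test. The median log2 ratio over all measured genes was -0.25, and other scalings would move every ratio up by 0.18 (trimmed mean of M values) or 0.24 (median of ratios). Below, "higher" and "lower" against T cells refer to this rule. A gene under 10 CPM in T cells counted as measured only where the keratin-positive cells reached 10 CPM, and the converse held for lower genes. For lists of such genes the filter thus largely sets the direction of the counts and medians in advance. The counts and medians of the lists therefore describe levels, and a comparison with 11.6% and 13% cannot show enrichment of a list. In ratios, a count of 0 was set to 3.

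Epithelial identity was partial. Of 24 genes of epithelial adhesion and identity, 7 were measured, 6 higher and 1 lower, with a median log2 ratio of 5.75. In all 64 barcodes, 13 of the 24 had 0 UMIs. The tight junction genes Tjp1 (57.9 CPM), F11r (51.6 CPM) and Cldn6 (32.9 CPM) were present, as were the plaque genes Jup (14.5 CPM) and Pkp2 (13.3 CPM) and the epithelial factor Elf3 (10.3 CPM). Among those at 0 were Epcam, Cdh1 (E-cadherin), Cdh3, Cldn3, Cldn7, Ocln, the desmosomal genes Dsp, Dsg2 and Dsc2, Ovol1 and the splicing regulators Esrp1 and Esrp2. Of the other simple keratins, Krt7 was at 6.94 CPM in 12 barcodes, Krt19 at 0.905 CPM and Krt20 at 0. Basal and squamous keratins were limited to some cells: Krt14 was at 38.3 CPM in 24 barcodes (up to 546 CPM), Krt16 at 25.9 CPM in 18 and Krt6a at 16 CPM in 4, while Krt5, Krt4 and Krt6b were at 0. Sprr1a, a squamous envelope protein, ranged from 0 to 1271 CPM with UMIs in 39 barcodes.

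Urothelial genes were also present in part. Upk1a was at 2.71 CPM, Upk1b at 0.603 CPM, and the uroplakins Upk2, Upk3a and Upk3b, with the urothelial regulators Pparg and Trp63, were at 0. Of the 12 genes listed, 3 were measured: Upk3bl (17.2 CPM) and the luminal factor Foxa1 (15.1 CPM) were higher, and Gata3, which T cells also express, was lower (13.9 against 58.5 CPM). The median log2 ratio of these 3 was 8.51, and 7 of the 12 genes were at 0.

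Mesenchymal genes were mixed. Vim, the intermediate filament protein of mesenchymal cells and also of lymphocytes, was at 7147 CPM (female) and 6321 CPM (male), against 1751 CPM in T cells (log2 1.96), just under the 4-fold rule. Of 18 genes of the transition list 8 were measured, 4 were higher and none lower, with a median log2 ratio of 2.90. The matrix protein Sparc (259 against 12.8 CPM), the receptor Axl (161 against 7.58 CPM), the surface protease Mmp14 (106 against 3.92 CPM) and the factor Twist2 (24.4 against 1.72 CPM) were the higher ones. Zeb1 stood at 60.9 CPM, below the 140 CPM of T cells. Snai1 was at 0.603 CPM, and Cdh2 (N-cadherin), Cdh11, Twist1, Prrx1 and Lox were at 0.

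Most markers of other tumour-resident cells were at 0 or near it, with single exceptions in several lists. Of the fibroblast genes, Col3a1, Dcn, Lum, Dpt and Fap were at 0, Col1a1 was at 1.81 CPM and Col1a2 at 0.302 CPM, and the highest of the 14 genes was Col6a1 at 42.5 CPM, against 3.65 CPM in T cells. The fibroblast list summed to 64.3 CPM in the Cd3-free barcodes and 33.9 CPM in T cells, the macrophage list to 96.3 and 44.7, and the endothelial list to 32 and 25 CPM. The 8 smooth muscle and pericyte genes summed to 1.2 CPM there and the 7 neutrophil genes to 2.8 CPM. Of the macrophage genes, Csf1r, Adgre1, C1qa, C1qb, C1qc, Ms4a7 and Fcgr1 were at 0 and Lyz2 at 0.603 CPM, while Cd68 (59.1 CPM) and Cd14 (19.6 CPM) were present. Kdr, Tek, Tie1, Esam, Emcn and Vwf of the endothelial list were at 0, but Cdh5, the vascular cadherin, was at 29.6 CPM with UMIs in 33 barcodes, against 0.0828 CPM in T cells. Wt1, Lrrn4, Muc16 and Upk3b of the mesothelial list were at 0, but Msln was high, as given next.

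**Figure D3:**
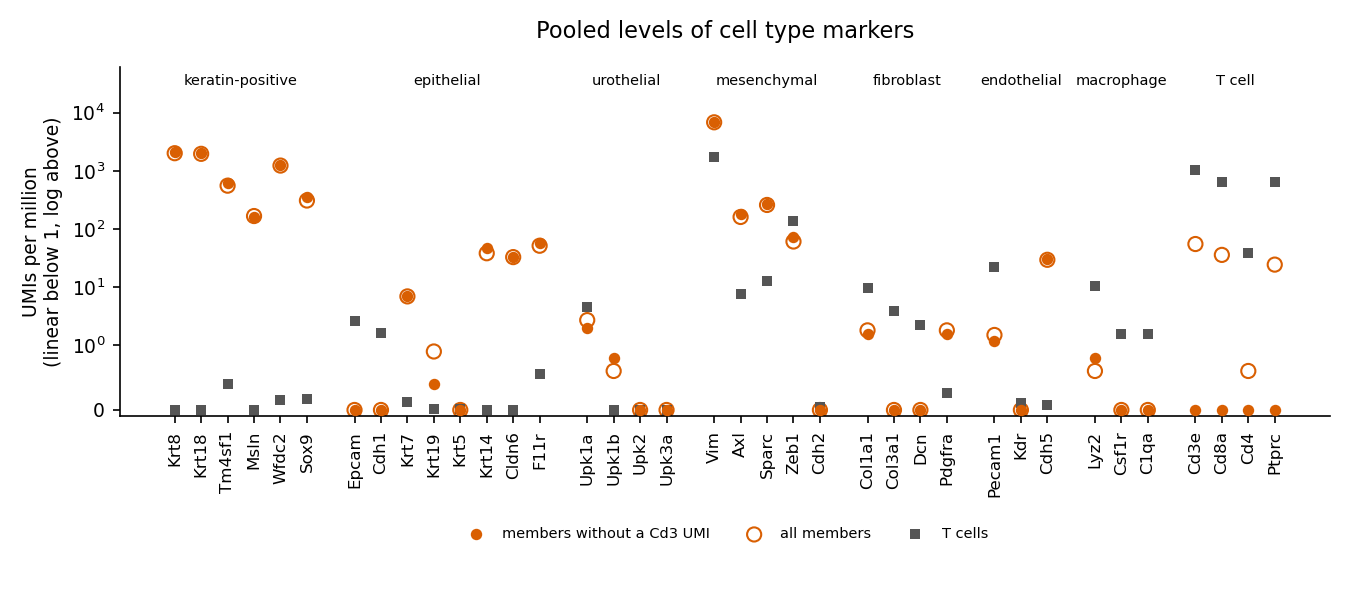
Pooled levels (CPM, linear below 1 and logarithmic above) of selected markers in all 64 keratin-positive barcodes (open circles), the 52 without a Cd3 UMI (filled circles) and 6244 T cells (squares). The T cell markers drop to 0 in the filled circles, while keratins, Tm4sf1, Msln, Wfdc2, Sox9 and Vim keep their level.

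The 25 genes with the highest ratios over T cells encode secreted, membrane and intracellular proteins. Msln, which encodes the surface protein mesothelin, was at 181 CPM (female) and 145 CPM (male), with UMIs in 60 of 64 barcodes (median 145 CPM, at most 350), and at 0 in T cells, so at least 5379-fold higher. Wfdc2, a secreted protein also known as HE4, was at 1199 and 1286 CPM, with UMIs in all 64 barcodes (216 to 2893 CPM), against 0.155 CPM. Dynap, a membrane protein, was at 202 CPM (60 barcodes) and at 0 in T cells, so at least 6515-fold higher. Nppb, the precursor of the natriuretic peptide BNP, was at 317 CPM in 54 barcodes and ranged from 0 to 2428 CPM. The water channels Aqp5 (160 CPM) and Aqp1 (147 CPM), the retinol carrier Rbp2 (143 CPM), the prostaglandin synthase Ptgds (202 CPM), the activin antagonist Fst (129 CPM) and the protease Klk10 (108 CPM) belonged to the same 25, as did the intracellular proteins Pcbd1, Gchfr, Prkg2, Rgs17 and Dpysl3. The rule for these 25 asked for 4-fold in each library, and their lowest log2 ratio was 9.60 in the female and 9.22 in the male.

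Several lineage factors were higher in the keratin-positive cells. Sox9 was at 317 CPM (female) and 296 CPM (male), with UMIs in 59 barcodes (median 221 CPM, at most 911), against 0.166 CPM in T cells. Klf5 was at 84.8 CPM against 0.300, Klf4 at 325 CPM against 52.0, and the chromatin architectural protein Hmga2 at 84.2 CPM against 0.663. Of 24 progenitor and lineage genes 14 were measured, 7 higher and 2 lower (Id2 and Runx2), with a median log2 ratio of 2.14. Sox2, Sox4, Prom1, Lgr5, Cd24a and Aldh1a1 were at 0.

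Among the most abundant transcripts was S100a6, which encodes a calcium-binding protein. It was at 10355 and 10450 CPM in the female and male keratin-positive cells, against 1823 CPM in T cells, and no barcode lay under 3351 CPM. Of 21 annexin, S100 and galectin genes 19 were measured, 10 higher and 1 lower, with a median log2 ratio of 2.14. Lgals3 (3341 against 508 CPM), Anxa1 (658 against 25.8 CPM), Anxa3 (350 against 0.642 CPM) and Anxa8 (153 against 0.0725 CPM) were higher, while Lgals1 (6243 against 2824 CPM) and Anxa2 (2753 against 946 CPM) did not reach 4-fold. The metallothionein Mt1 was at 4759 and 3445 CPM, against 401 CPM. Of the tetraspan and related proteins, 11 of 14 measured genes were higher (median log2 ratio 4.63), led by Cd9 (1197 against 37.7 CPM) and Cd63 (960 against 6.37 CPM). Cd82 was lower.

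**Figure D4:**
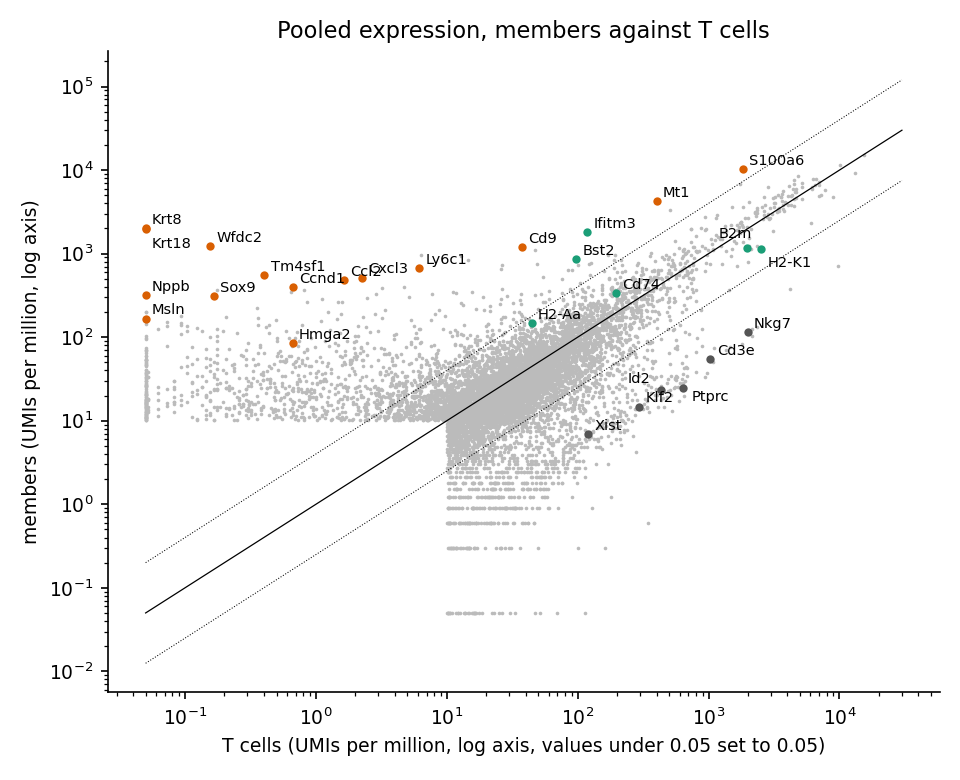
Pooled level of 8884 measured genes in 64 keratin-positive barcodes (vertical axis) and 6244 T cells (horizontal axis), both in CPM on logarithmic axes with values under 0.05 set to 0.05. The solid line marks equality and the dotted lines 4-fold, and keratins, Msln and Nppb sit at the left edge because T cells hold 0 or 1 UMI of each.

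Ligands and receptors of the EGF receptor family were both expressed. The ligands Hbegf (387 against 3.21 CPM), Nrg1 (104 against 2.0 CPM), Ereg (29.9 against 0.839 CPM), Btc (26.5 against 0.0311 CPM) and Tgfa (24.7 against 1.14 CPM) were higher, as were the receptors Erbb3 (61.8 against 1.68 CPM) and Egfr (11.8 against 0.228 CPM). Areg was the 1 lower gene of the 8 measured, and its level in Cd3-free barcodes was 0. The median log2 ratio of the list was 5.45. Of 20 output genes of the RAS-MAPK cascade 16 were measured, 8 higher and 1 lower (Egr1), with a median of 2.17. A link to the EGF receptor family was not tested. Ccnd1, the G1 cyclin, was at 390 and 399 CPM in the 2 libraries against 0.663 CPM in T cells, and Ier3 was at 744 against 48.8 CPM. Among YAP-TEAD genes 7 of 10 measured were higher (median 4.89), including the target Ccn1 (191 against 2.85 CPM) and the coactivators Wwtr1 (89.6 CPM) and Yap1 (16.9 CPM).

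Genes of matrix contact and proteolysis were higher in 18 of 23 measured cases and lower in none (median log2 ratio 3.71). The protease inhibitors Timp1 (173 against 2.30 CPM) and Timp2 (234 against 21.4 CPM) and the urokinase receptor Plaur (209 against 8.79 CPM) had the largest levels among the higher genes. Cd44 (363 against 132 CPM) and Itgb1 (181 against 179 CPM), both adhesion receptors that T cells also use, did not reach the rule.

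Chemokines that attract neutrophils and monocytes were high in some keratin-positive cells and at 0 in others. Ccl2, a monocyte attractant, was at 542 CPM (female) and 383 CPM (male) and had UMIs in 46 barcodes (0 to 3514 CPM). Cxcl2 was at 804 and 609 CPM (49 barcodes, 0 to 4998 CPM), Cxcl3 at 581 and 412 CPM (59 barcodes, 0 to 3026 CPM) and Cxcl1 at 285 and 283 CPM (47 barcodes). T cells stood at 26.2 CPM for Cxcl2 and at 1.11 to 2.24 CPM for Cxcl1, Ccl2 and Cxcl3. The sum of the 3 CXC genes over the 52 Cd3-free barcodes ran from 0 to 7236 CPM with a median of 946, and 25 barcodes reached 1000 CPM. Of the 40 chemokine and cytokine genes, 20 were measured, 12 higher and 3 lower (median log2 ratio 3.74). Spp1 (639 against 83.7 CPM) and Gdf15 (126 against 0.176 CPM) were among the higher, and Mif (2676 against 1147 CPM) did not reach the rule. Il1a, Il1b, Cxcl5, Cxcl12, Cxcl14, Ccl20, Tgfb2 and Tslp were at 0, and Il6 and Tnf were at 0.603 CPM.

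Across the 52 Cd3-free barcodes the 3 CXC chemokines varied together. Spearman's rho was 0.73 between Cxcl1 and Cxcl2, 0.65 between Cxcl1 and Cxcl3 and 0.60 between Cxcl2 and Cxcl3, and their sum had a rho of 0.67 with Nfkbia, the feedback inhibitor of NF-kappaB, and 0.60 with Ccl2. These are descriptions across cells that share 2 libraries; the sum had a rho of 0.21 with the UMIs of the barcode. The 3 genes lie in 1 cluster on chromosome 5, and NF-kappaB is known to act at their promoters. The promoter stretches follow because the genes varied together. Each has 130 bases and ends 15 bases from the start site on, and all come from RefSeq on GRCm38.p6, plus strand. Capitals mark matches to GGG and TTCC with any 3 bases between them, on either strand, where overlapping matches on both strands merge.
Cxcl1, chr5:90891130-90891259: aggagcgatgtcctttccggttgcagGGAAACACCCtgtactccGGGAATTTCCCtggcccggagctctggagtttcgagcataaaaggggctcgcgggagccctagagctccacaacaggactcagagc
Cxcl2, chr5:90903784-90903913: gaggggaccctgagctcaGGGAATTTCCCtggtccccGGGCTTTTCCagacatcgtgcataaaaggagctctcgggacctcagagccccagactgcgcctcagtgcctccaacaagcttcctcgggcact
Cxcl3, chr5:90785986-90786115: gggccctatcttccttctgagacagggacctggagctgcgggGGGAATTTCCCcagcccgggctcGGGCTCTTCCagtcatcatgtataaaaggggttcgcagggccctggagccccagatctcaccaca
All 3 hold GGGAATTTCC, beginning 71, 97 and 73 bases before the start, and each holds a further match. The searched pattern occurs in 5.56% of the 32851 promoters of 300 bases in the table. A match is a description of the letters and does not show binding.

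Transcripts of MHC class II split the keratin-positive cells. H2-Aa was at 143 CPM (female) and 153 CPM (male), H2-Ab1 at 88.6 and 80.2 CPM, and H2-Eb1 at 146 and 155 CPM. T cells stood at 44.5, 40.1 and 38.7 CPM, so with all 64 barcodes pooled none of the 3 reached 4-fold. Without the Cd3-positive barcodes H2-Aa and H2-Eb1 passed 4-fold, while H2-Ab1, at 111 CPM, did not. Cd74, the invariant chain that guides class II to its compartment, was at 329 and 342 CPM, and H2-DMb1, a chain of the peptide exchanger, at 61.6 and 63.7 CPM, higher than the 3.43 CPM of T cells. Of the 64 barcodes, 37 held any UMI of the 3 class II genes, 23 held at least 10 (12 female, 11 male) and 27 held none. Among the 52 Cd3-free barcodes, 22 held at least 10 (207 to 2995 CPM), 9 held 1 to 9 and 21 held none. The median depth of these sets, in the same order, was 57979, 43250 and 37547 UMIs.

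**Figure D5:**
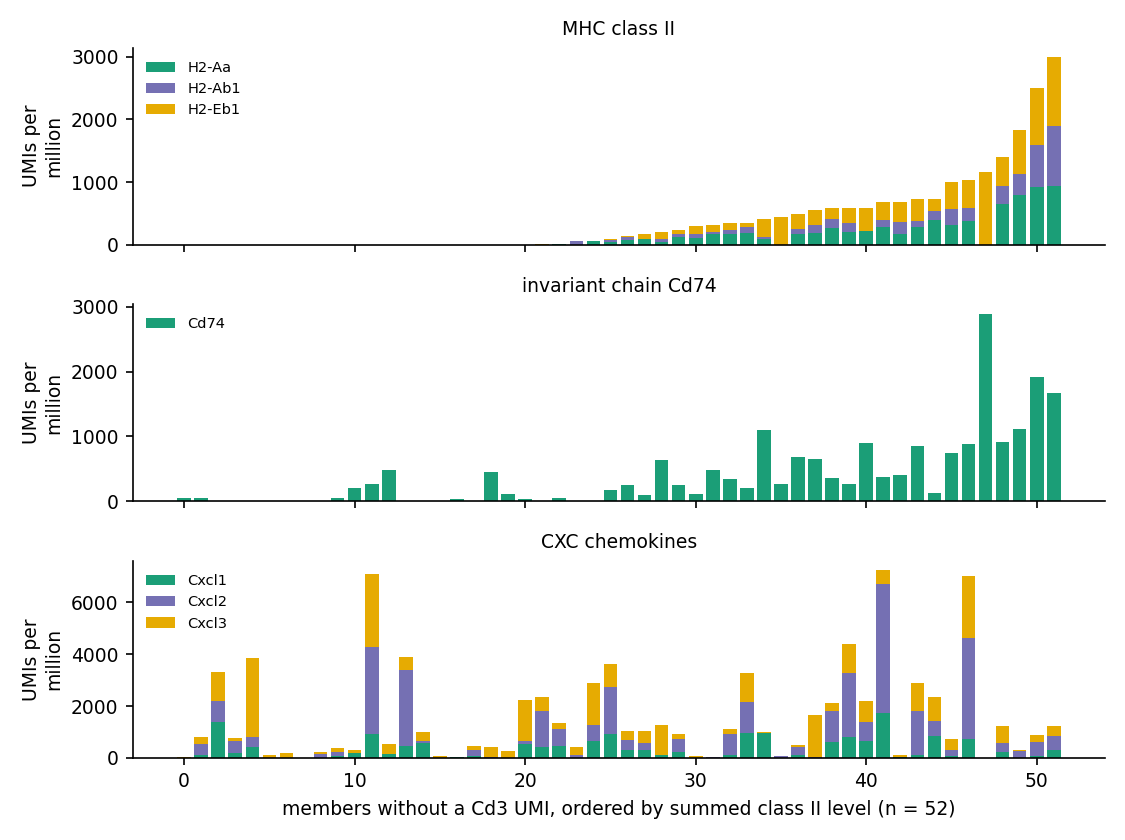
Levels in CPM of H2-Aa, H2-Ab1 and H2-Eb1 (stacked, top), Cd74 (middle) and Cxcl1, Cxcl2 and Cxcl3 (stacked, bottom) in the 52 keratin-positive barcodes without a Cd3 UMI, ordered by the summed class II level. Cd74 is highest to the right, as is class II, and chemokine peaks occur on both sides. The median chemokine sum was 1234 CPM in barcodes with at least 10 class II UMIs, 1049 with 1 to 9 and 409 with none.

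Markers of professional antigen-presenting cells were at or near 0 in the 22 barcodes with at least 10 class II UMIs. Among their 1288715 UMIs, Ptprc, Csf1r, Adgre1, C1qa, C1qb, C1qc, Itgax, Flt3, Cd86 and Ms4a1 were all at 0 and Lyz2 had 2 UMIs. Their Krt8 level was 2654 CPM, against 1494 CPM in the 21 barcodes without class II UMIs. Cd74 stood at 729 against 80.0 CPM, H2-DMb1 at 123 against 13.1 CPM and H2-DMa at 61.3 against 1.19 CPM in the same order. Interferon-response genes differed likewise: Irf1 was at 217 against 35.8 CPM, Gbp2 at 165 against 7.17, Igtp at 102 against 13.1 and Cxcl10 at 83.8 against 5.97 CPM. Cd274 (PD-L1) was at 26.4 against 2.39 CPM. Class I genes differed less, with H2-K1 at 1643 against 834 CPM and B2m at 1470 against 1082 CPM. The cut was made on the count of class II UMIs itself, into which depth enters, so the sets are not types of cell. By level the sets overlap: 1 to 9 UMIs covered 10.2 to 1158 CPM, and at least 10 UMIs 207 to 2995 CPM.

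Over 4758 genes ranked across the 52 Cd3-free barcodes, those closest to the summed class II level were Psmb10 (Spearman's rho 0.84), Cd74 (0.79), Psme2 (0.74), Psmb9 (0.73), H2-DMb1 (0.73) and H2-DMa (0.72). Psmb9 and Psmb10 are subunits of the immunoproteasome and Psme2 of its activator. The UMIs of the barcode had a rho of 0.32 with the same level, and Krt8 of 0.58. Within the class II genes the rho was 0.89 between H2-Aa and H2-Ab1 and 0.82 between H2-Aa and H2-Eb1. Ciita, the master regulator of class II, was at 2.11 CPM, with UMIs in 5 of the 64 barcodes. Class II promoters carry an X box and a Y box, bound by RFX and NF-Y, through which Ciita acts. The stretches of 3 of these genes are shown because their levels varied together over the barcodes, in the 5′ to 3′ direction of each gene, from RefSeq on GRCm38.p6. Capitals mark the Y box letters CTGATTGG, the X box core (CNAG and ACNNATG with any 2 bases between them) and TGACGTCA, the cyclic AMP response element, searched on both strands.
H2-Aa, chr17:34287809-34287938, minus strand: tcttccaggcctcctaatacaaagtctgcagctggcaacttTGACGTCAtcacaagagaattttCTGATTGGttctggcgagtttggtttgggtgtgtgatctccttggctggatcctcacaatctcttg
H2-Eb1, chr17:34305752-34305881, plus strand: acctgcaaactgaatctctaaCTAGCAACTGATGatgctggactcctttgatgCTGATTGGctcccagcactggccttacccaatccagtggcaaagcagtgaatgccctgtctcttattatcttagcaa
H2-DMb1, chr17:34153076-34153205, plus strand: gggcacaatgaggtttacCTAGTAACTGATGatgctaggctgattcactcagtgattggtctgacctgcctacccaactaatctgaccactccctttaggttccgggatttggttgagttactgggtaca
The X box letters begin 94 bases before the start of H2-Eb1 and 97 before that of H2-DMb1, and occur in 0.715% of the 32851 promoters. The Y box letters begin 51 bases before the start of H2-Aa and 62 before that of H2-Eb1, and occur in 4.10%. TGACGTCA, 74 bases before the start of H2-Aa, occurs in 1.79%. The searched X box letters had no match in H2-Aa, nor the Y box letters in H2-DMb1. With such strict letters, that does not show that the box is absent. H2-Ab1 is not in the table.

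In class I presentation, of 21 measured genes none was higher and 3 were lower (Psmb8, H2-Q7 and Nlrc5), with a median log2 ratio of -0.91. H2-K1 was at 1152 against 2520 CPM, H2-D1 at 1228 against 2342 CPM and B2m at 1163 against 1979 CPM. Of 23 measured interferon gamma response genes none was higher and 9 were lower (median -1.61), among them the receptor chain Ifngr1 (49.5 against 623 CPM). Bst2 was the 1 higher gene of 10 measured in the type I interferon list, at 864 against 97.2 CPM and with UMIs in all 64 barcodes. Among 21 measured checkpoint and costimulatory ligands 2 were higher, Cd276 (25 against 0.0828 CPM) and Tnfrsf10b, and 10 were lower. Cd274 was at 18.1 CPM (female) and 9.44 CPM (male), with UMIs in 12 barcodes, against 68.4 CPM in T cells. Cd40, the receptor for CD40L in the study's title, was at 7.84 CPM with UMIs in 14 barcodes, 6 female and 8 male, against 0.849 CPM in T cells. Its level was under the 10 CPM needed for a call.

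Metabolic and stress genes differed from T cells list by list. Of 23 measured glycolysis and hypoxia genes 3 were higher and 1 lower (median log2 ratio 0.54), and Gapdh was at 7292 against 6952 CPM. Car9, the hypoxia-induced carbonic anhydrase, was 1 of the 3, at 68.8 against 0.528 CPM. In the NRF2 and redox list 5 of 19 measured genes were higher and none lower (median 1.01), including Gpx1 (845 against 190 CPM) and Aldh3a1 (38.3 against 0.0518 CPM), while Nqo1 was at 0. In cholesterol synthesis 5 of 18 were higher (median 1.13), led by Fdps at 283 against 60.5 CPM. The p53 list had 1 higher and 2 lower of 13 measured genes (median 1.11), and Cdkn1a was at 311 against 92.5 CPM. Cdkn2a was at 0.905 CPM and Cdkn2b at 0. Heat shock and immediate early genes had a median of -0.08, with none higher and 3 lower of 19.

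Cell cycle transcripts were present in some keratin-positive cells. Of 27 measured cell cycle genes 2 were higher (Ccnd1 and Aurka) and none lower, with a median log2 ratio of -0.05. Mki67 had UMIs in 33 of the 64 barcodes and Top2a in 40, at 74.5 and 120 CPM, against 95.8 and 122 CPM in T cells. Counted over 6 mitotic genes, 20 of the 52 Cd3-free barcodes held at least 20 UMIs, 12 of 29 female and 8 of 23 male. Depth moves with this count, since the mitotic sum had a rho of 0.49 with the UMIs of the barcode, and its part was not tested.

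Between female and male keratin-positive cells, the log2 ratio of Krt8 was -0.05 and that of Krt18 was 0.01, but the same keratin threshold chose the cells in both libraries. Of genes that the rule did not use, the log2 ratio of female over male was -0.02 (-0.15 to 0.12) for Tm4sf1, -0.10 (-0.19 to -0.01) for Wfdc2 and 0.31 (0.05 to 0.57) for Msln, whose interval lay above 0. Of 7794 genes measured, 174 (2.23%) were higher in the female and 43 (0.552%) in the male keratin-positive cells, at 1.5-fold or more with the near bound of the log2 ratio at 0.32 or more from 0. Without the 12 Cd3-positive barcodes the counts were 157 and 33, of which 78 and 15 were the same genes. The intervals do not cover the spread between cells or mice, so these counts describe 2 libraries.

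Of the 10 genes with the highest female ratio, 7 were near 0 without the Cd3-positive barcodes. Ccr7, Cd52, Rgs1, Srgn, Cyba, Coro1a and Rac2 had log2 ratios of 1.52 to 4.49 over all 64 barcodes, but stood at 0 to 3.20 CPM in the Cd3-free ones, against 394 to 2331 CPM in T cells. Gzmb, the lowest at -1.65, was at 0.799 CPM in the Cd3-free barcodes. The T cell list itself was at 1363 CPM (female) and 757 CPM (male), and at 15.5 and 15.7 CPM without the Cd3-positive barcodes. Of 27 measured cell cycle genes, 11 were higher and 2 lower in the female keratin-positive cells, with a median log2 ratio of 0.21. Over all genes the shares were 2.23% and 0.552%. These counts include the Cd3-positive barcodes, and 1 of the female ones held the highest sum over 6 mitotic genes, 808 UMIs. Pooled, the cell cycle list summed to 3256 CPM (female) and 2442 CPM (male), but its medians per barcode lay closer, at 1610 and 1480 CPM. Female barcodes were also deeper, with a median of 53135 UMIs against 43236. The part of depth in the cell cycle counts was not tested. The mitotic genes Hmmr (54.3 against 17.3 CPM, log2 1.65, 0.98 to 2.38) and Ccnb1 (85.6 against 30.7 CPM, 1.48, 0.97 to 2.02) were higher in the female library with the Cd3-positive barcodes and without them (1.78 and 1.5). Prl2c3, a prolactin family gene, was at 95.4 against 26 CPM (1.88, 1.34 to 2.46), with 40.8% of all its UMIs in 1 barcode.

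Several genes had lower levels in the female library. Vegfa, the angiogenic factor induced by hypoxia, was at 32.8 against 73.1 CPM (log2 -1.16, -1.63 to -0.69), and at -0.58 without the Cd3-positive barcodes. Hilpda, a lipid droplet protein also induced by hypoxia, was at 55.8 against 110 CPM (-0.98, and -0.70 without). The replication genes Lig1 (28.4 against 62.1 CPM, -1.13) and Mcm3 (31.3 against 58.2 CPM, -0.89) stood at -1.32 and -0.85 without. Krt14 was at 28.9 against 53.5 CPM (-0.89, -1.42 to -0.36), with UMIs in 11 female and 13 male barcodes, and -0.66 (-1.21 to -0.11) without the Cd3-positive barcodes. Without them Krt14, Vegfa, Hilpda and Mcm3 were no longer called lower, while Lig1 was. Over all 64 barcodes, 2 of 23 measured glycolysis and hypoxia genes were lower in the female library and 0 higher. Their median log2 ratio was -0.12, and the list summed to 20506.5 CPM (female) and 20484.6 CPM (male). Of all genes measured between the sexes, 0.552% were lower. The class II list had a median female over male log2 ratio of -0.07 and the class I list of -0.04, with no gene of either called, beside a median of 0.05 over all genes measured.

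The spread between keratin-positive cells was measured beyond counting error. Of 1091 genes at 100 CPM or more, 72 (6.60%) had a squared coefficient of variation above 1, and the median was 0.164. Of the 15 widest over all 64 barcodes, 3 were genes of the T cell list. The 15 widest in the 52 Cd3-free barcodes held the class II gene H2-Ab1, the interferon genes Gbp2 and Irf1, the mitotic genes Ube2c and Top2a, the chemokines Cxcl2 and Ccl2, the squamous gene Sprr1a and the stress genes Zfp36 and Dusp1, with Cdk8, Hist1h2ae, H13, Klk10 and Fkbp4. Cdk8 was the widest (0 to 39429 CPM), with its maximum in a barcode that held 15.9% of its UMIs. The maxima of H13 (2316 CPM), Fkbp4 (1737 CPM), Klk10 and Gbp2 (1158 CPM each) lay in the barcode of fewest UMIs, 1727, where 1 UMI is worth 579 CPM. Without barcodes of under 1000 genes, which removes that 1 barcode, 60 genes were past the same limit.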

How the data were processed

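Single-cell RNA was measured in 1 male and 1 female library. The values are raw UMI counts, whole numbers for every gene in every barcode, deposited as matrices that, per the file headers, came from Cell Ranger 7.0.1. The submitters' processing notes name GRCm38 and Seurat 5 without saying what for. The annotation release and cell-calling settings are not given in the sources used here. Of 32285 genes, 99.8% matched GENCODE M21 by identifier, and gene coordinates come from it.

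Filtering on 500 or more genes and 10% or fewer mitochondrial UMIs left 6987 of 7366 barcodes. These held 55647457 female and 50716597 male UMIs. No doublet caller was run: keratin-positive barcodes with a Cd3 UMI were set apart instead. Counts were summed per set and compared as log2 ratios of CPM, with an interval that was the exact one for 2 Poisson counts. Cells gave no p-value. Genes counted as measured had 10 CPM or more in 1 set and 20 UMIs or more in all. Between sexes, no barcode could hold 50% or more of the UMIs of the higher library. Python 3.11.15, numpy 2.4.6, scipy 1.17.1, pandas 2.3.3, matplotlib 3.10.9, edgeR 4.0.16 and DESeq2 1.42.0 (both for scaling factors only) were used. The steps were tested on simulated counts drawn with counting error alone, so that test does not cover the spread between barcodes.

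The keratin-positive cells, gene lists and rules were chosen with earlier results of these data known. Genes were named by rule: the 3 markers, the 15 most abundant, the 25 highest over T cells (100 CPM or more, 4-fold in each library), the 5 most abundant and the undetected genes of each list, the 10 highest and 10 lowest between sexes, the sex-linked and hormone receptor genes, Cd40, Cd274 and the 15 widest, which were taken again without Cd3-positive barcodes. Elf3, Anxa1, Anxa3, Gdf15, Tgfa, Egfr, Areg, Yap1, Car9, Aldh3a1, Cd276, Tnfrsf10b, Aurka, Ifngr1, Mki67, Top2a and a few other list members, and the genes set beside class II and the CXC chemokines, were named after their values were seen. Some genes that the rule names are not reported here.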

Additional observations from a re-analysis of the deposited data

How the results depend on the processing

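No paired analysis was possible because there is 1 library per sex. Of 72 counts and levels under other settings, 60 stayed within 1.5-fold of the value given. Of 406 list medians over T cells 113 moved outside the medians of their genes' interval bounds and 1 turned, and of 296 between the sexes 10 moved. Against 1029 genes higher than in T cells, the count was 544 in barcodes thinned to 3000 UMIs, 349 with a filter at 50 CPM and 100 UMIs and 1935 with no level filter. Against 1152 lower genes it was 508 and 563 under the first 2. Between the sexes, the count of higher genes was 174, and 6 with thinning and 67 with the stricter filter. That of lower genes was 43, and 9, 15 and, with equal weight per barcode, 95. With thinning 2 of the 6 and 1 of the 9 were among the 174 and 43, so most of those calls were different genes. Thinning leaves fewer UMIs and the filter fewer genes. The T cell list went from 1130 CPM to 671 CPM with keratins at 1000 CPM or more and to 15.6 CPM without Cd3-positive barcodes, by construction. The sign turned for the macrophage list with no level filter (median log2 -0.30), for Lyz2 against thinned T cells (1.12), for Slc7a1 between sexes after thinning (0.58), and without Cd3-positive barcodes for Srgn (-0.38) and Rac2 (-3.19). The causes of these turns and of the change with equal weight were not tested. With 1 library per sex, neither depth nor any setting gives the spread between mice.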
